A study of Mus musculus with 24 samples.

Results

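The TET dioxygenases of the mouse are encoded by 3 genes, Tet1, Tet2 and Tet3, which were taken by name from 51912 genes counted in RNA-seq. The groups were embryonic stem cells (ESCs), neuronal progenitors (NPs) and ESCs without TET proteins (TET TKO), with 3 libraries in each. ESCs were wild type with the strain label C57BL/6 X 129S5. NPs were differentiated from these ESCs, by aggregation of the cells followed by treatment with retinoic acid. TET TKO cells carried a TET1/2/3 triple knockout in another ESC line, labelled C57BL/6 X 129/sv, so genotype and line cannot be told apart in the comparison with ESCs. The 3 genes were followed across differentiation and in the knockout, in which they are the targeted genes.

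TET enzymes oxidise 5-methylcytosine in CG dinucleotides to 5-hydroxymethylcytosine and further oxidised bases, with iron and 2-oxoglutarate as cofactor and cosubstrate. The oxidised bases are lost by dilution at replication, or are cut out by the glycosylase TDG and replaced by base excision repair. TET1 and TET2 are the enzymes known for mouse ESCs, and TET3 is known for the zygote and for neural cells. TET1 and TET3 can carry a CXXC domain that binds CG-rich DNA, whereas TET2 lacks it.

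The libraries of ESCs and NPs held 20519702 to 23976914 counts, and those of TET TKO ESCs held 80704741 to 93210102, so depth also differed with genotype. Levels are given as RPKM, reads scaled to gene length and sequencing depth, after scaling library sizes by TMM. Pluripotency markers summed to 2452 to 2530 RPKM in ESCs, 2303 to 3070 in TET TKO ESCs and 7.61 to 26.4 in NPs (8 genes), and neural progenitor markers to 6.18 to 7.81, 9.66 to 22.3 and 149 to 278 (6 genes). The sum in the knockout joins genes that differed from ESCs in opposite directions, since Zfp42 was called lower (304 to 50.6 RPKM, log2 -2.70, edgeR adjusted p = 7.58548e-05), while Klf4 was at 37.6 against 72.2 RPKM and Dppa5a at 1508 against 956, neither of them called. None of these 14 genes was at 0 RPKM in every library of a group. The 5 mesendoderm markers summed to 18.7 to 22.7 RPKM in NPs against 1.44 to 3.02 in ESCs, and 8 fibroblast markers to 3.98 to 38.3 against 5.64 to 6.78. Both sums join genes that differed in opposite directions. Gata6, Sox17 and Foxa2 were called higher in NPs, while T alone was lower, at 0.217 against 0.787 RPKM. Of the fibroblast markers, Col3a1 and Postn were called higher (log2 6.97 and 6.81), while Thy1 alone was lower, at 0.667 against 4.86 RPKM. Neither T nor Thy1 was called. In the knockout, 4 trophoblast markers summed to 43.6 to 83.1 RPKM against 19.7 to 25.6 in ESCs, mostly from Tfap2c at 57.1 against 20.2 RPKM, and Eomes was at 3.00 against 1.28 RPKM, neither of them called. None of the 4 was at 0 in every library of a group. The part of these other markers in the TET levels of NPs and of TET TKO ESCs was not tested. Where a bulk level is lower, fewer cells with a transcript and less of it per cell cannot be told apart.

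Tet1 (ENSMUSG00000047146) lies on the minus strand of GRCm38 at chr10:62804570-62908996, Tet2 (ENSMUSG00000040943) at chr3:133463679-133545139 and Tet3 (ENSMUSG00000034832) at chr6:83362373-83459084, also on the minus strand. Their exons, counted together, span 15065, 16870 and 16695 bases. The sequences around 1 annotated start of each gene (RefSeq, GRCm38.p6, minus strand, 250 bases before to 50 bases after the start) are shown because the genes differed in direction between ESCs and NPs and because CG dinucleotides, in capitals, are the substrate of the enzymes themselves. They lie at chr10:62887275-62887574, chr3:133544341-133544640 and chr6:83441629-83441928. All 3 starts fall inside the gene spans rather than at their outer ends, and the gene counts do not tell which start was used.
Tet1: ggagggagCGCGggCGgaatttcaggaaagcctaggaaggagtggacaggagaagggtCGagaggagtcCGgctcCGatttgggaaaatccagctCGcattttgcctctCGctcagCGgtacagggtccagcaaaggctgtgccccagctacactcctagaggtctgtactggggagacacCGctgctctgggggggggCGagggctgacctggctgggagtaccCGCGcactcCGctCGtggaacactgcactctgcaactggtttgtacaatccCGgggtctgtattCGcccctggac
Tet2: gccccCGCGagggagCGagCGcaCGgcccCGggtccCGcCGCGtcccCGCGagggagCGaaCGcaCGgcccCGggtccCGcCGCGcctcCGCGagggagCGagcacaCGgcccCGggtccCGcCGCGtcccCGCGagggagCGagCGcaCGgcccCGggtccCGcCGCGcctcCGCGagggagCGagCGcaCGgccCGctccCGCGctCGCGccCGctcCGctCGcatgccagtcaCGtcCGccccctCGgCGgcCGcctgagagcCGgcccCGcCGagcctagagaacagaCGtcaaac
Tet3: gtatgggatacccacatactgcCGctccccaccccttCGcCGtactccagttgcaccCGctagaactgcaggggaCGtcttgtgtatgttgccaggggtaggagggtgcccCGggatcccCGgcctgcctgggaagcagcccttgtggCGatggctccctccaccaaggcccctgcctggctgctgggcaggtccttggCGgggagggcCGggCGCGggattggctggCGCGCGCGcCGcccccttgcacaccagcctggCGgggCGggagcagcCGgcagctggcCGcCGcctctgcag
The Tet2 window holds 57 CG dinucleotides, more than 99.8% of 32851 promoter windows of the same length, whose median is 7. Tet1 and Tet3 hold 17 and 22, more than 68.6% and 76.9% of windows. The GC box GGGCGG, read on both strands, occurs once in the Tet1 window, once in Tet2 and 2 times in Tet3, and in 35.7% of all windows. The CCAAT box CCAAT is present in the Tet3 window alone among the 3 genes, and in 37.4% of all windows. The octamer ATGCAAAT (1.74% of windows) and the SOX core ACAAAG (18.7%) have no match in any of the 3.

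In ESCs, transcripts of the family were mostly Tet1. Tet1 stood at 65.9, 60.8 and 68.5 RPKM in the 3 libraries (65.1 ± 3.92, SD, n = 3), from 20009 to 25373 counts. Tet2 stood at 20.5, 20.3 and 16.1 RPKM (19.0 ± 2.47, SD, n = 3), and Tet3 at 0.746, 0.631 and 0.770 RPKM (0.715 ± 0.0744, SD, n = 3). The order Tet1, Tet2, Tet3 held in each of the 3 libraries, and the ranges of the genes did not overlap. Among the 15614 genes tested for NPs or for TET TKO ESCs, Tet1 was above 94.8% to 95.7% of genes and Tet3 above 14.5% to 16.5%. Tet3 lay under 1 RPKM, the minimum for a gene to be tested, with 230 to 316 counts per library.

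NPs had less Tet1 and Tet2 and more Tet3. Tet1 was at 5.45, 3.88 and 3.17 RPKM in the NP libraries (4.17 ± 1.17, SD, n = 3), which is 6.40% of the ESC mean. The fold change on the log2 scale was -3.98 (SE 0.205, 95% interval -4.45 to -3.51, edgeR adjusted p = 1.89436e-06). Every NP library was below every ESC library. Tet2 was at 3.97, 2.59 and 3.35 RPKM (3.30 ± 0.690, SD, n = 3), or 17.4% of ESCs, with a log2 fold change of -2.54 (SE 0.185, 95% interval -2.96 to -2.11, edgeR adjusted p = 1.02056e-05). Here too the groups did not overlap, as in 71.9% of the 15197 genes tested.

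Tet3, the member known for neural cells, moved the other way. Its NP libraries stood at 13.0, 5.09 and 5.35 RPKM (7.82 ± 4.51, SD, n = 3), all above the ESC libraries. The log2 fold change was 3.43 (SE 0.374, 95% interval 2.57 to 4.29, edgeR adjusted p = 8.25691e-05), which is 10.8-fold. NP replicate 1 was far above the other two, and without it the log2 fold change was 2.84 (SE 0.122, edgeR). The same library had the largest sum of neural progenitor markers, 277.8 RPKM against 149.2 and 193.8 in NP replicates 2 and 3, and of 5 neuron markers, 196.1 RPKM against 85.9 and 149.5. The neuron sum came mostly from Tubb3, at 104 RPKM in NPs and 68.1 in ESCs, which was not called (edgeR adjusted p = 0.103413). Of the others, Dcx, Map2 and Neurog2 were called higher in NPs, and Rbfox3 was not called. The part of these marker sums in the Tet3 level of NP replicate 1 was not tested.

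All 3 genes passed the limits of the study, a 3-fold difference with an adjusted p below 0.001. Over all genes tested, 22.3% passed in NPs, 12.4% called higher and 9.98% lower, so a call was common. By size of the log2 fold change, Tet1 was 852nd and Tet2 1471st from the lowest, and Tet3 848th from the highest of 15197 genes. The calls of the 3 genes held when each library was left out in turn.

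**Figure D1:**
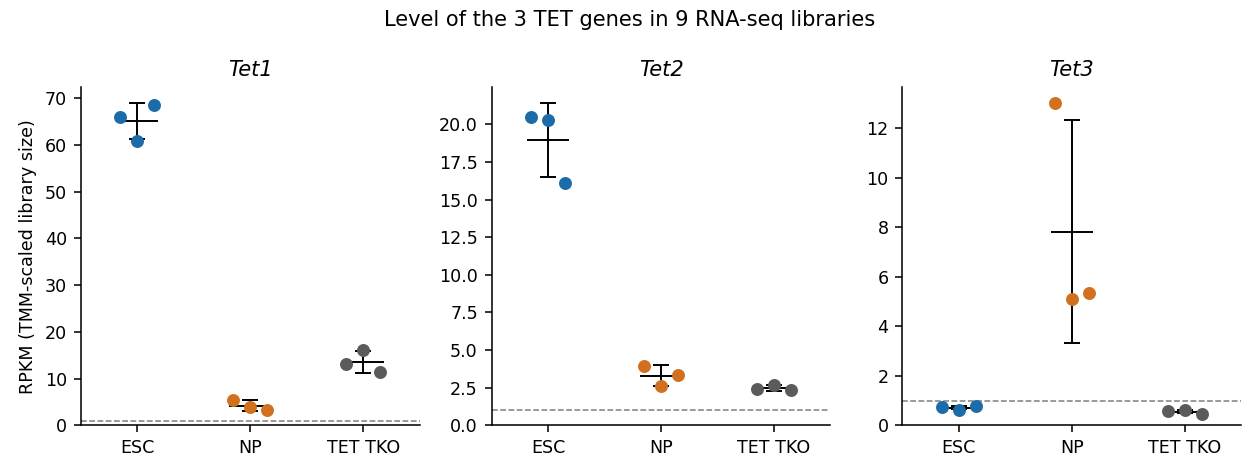
RPKM of Tet1, Tet2 and Tet3 (vertical axes, each from 0 on its own scale) in the 3 libraries of ESCs, NPs and TET TKO ESCs. Points are libraries in the order of their replicate numbers, horizontal bars the group means, error bars the SD, and the dashed line 1 RPKM. Tet1 and Tet2 are highest in ESCs, Tet3 is highest in NPs with replicate 1 at 13.0, and Tet1 in TET TKO ESCs stays between 11.3 and 16.1.

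The TET TKO libraries still held reads from all 3 targeted genes. Tet1 was at 13.2, 16.1 and 11.3 RPKM (13.5 ± 2.38, SD, n = 3), from 14731 to 17281 counts per library. That is 17.4% to 24.7% of the ESC mean, and the level was above that of 66.7% to 74.2% of genes. The log2 fold change against ESCs was -2.38 (SE 0.141, 95% interval -2.71 to -2.06, edgeR adjusted p = 7.01916e-05). Each TET TKO library lay below the ESC libraries and above the highest NP library at 5.45 RPKM. A test between TET TKO ESCs and NPs was not made.

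Tet2 left less transcript than Tet1 in the knockout. It stood at 2.42, 2.70 and 2.32 RPKM (2.48 ± 0.197, SD, n = 3), or 12.2% to 14.2% of the ESC mean, from 3151 to 3375 counts. Its log2 fold change was -3.05 (SE 0.134, 95% interval -3.37 to -2.74, edgeR adjusted p = 1.87049e-05). No TET TKO library reached the ESC range. Tet1 and Tet2 passed the limits of the study, where 2.14% of 13939 genes were called, 1.29% lower and 0.847% higher. They were 389th and 252nd from the lowest log2 fold change. Both stayed above 1 RPKM in all 3 TET TKO libraries.

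Tet3 stood at 0.561, 0.617 and 0.474 RPKM in TET TKO ESCs (0.551 ± 0.0724, SD, n = 3), from 682 to 736 counts. The groups did not overlap, as in 51.8% of genes, but the distance was small, and the mean was 77.0% of that in ESCs. With under 1 RPKM in all 6 libraries, Tet3 did not enter the main test. Without a filter on low counts, the log2 fold change was -0.39 (SE 0.231, edgeR adjusted p = 0.290804), or 76.4% of ESCs with a 95% interval of 54.8% to 106%. Among genes with at least 10 counts in every library it was -0.46 (SE 0.186, edgeR adjusted p = 0.0925295), or 72.5% with an interval of 53.8% to 97.8%. A fall of Tet3 transcript was not called in either fit.

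The counts are sums over the exons of a gene, so they do not place the remaining reads on exons inside or outside the targeted sequence, and they hold no measure of protein. When TET TKO counts were thinned at random to the depth of ESCs, Tet1 kept 3451 to 4586 counts per library, Tet2 794 to 890 and Tet3 162 to 202. At this depth, the log2 fold changes of Tet1 and Tet2 kept their calls.

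The make-up of the family was compared per library, as each gene's share of the summed RPKM. In ESCs, the sum was 84.8 ± 2.79 RPKM (SD, n = 3), with 76.8% ± 3.07 from Tet1, 22.4% ± 3.12 from Tet2 and 0.843% ± 0.0658 from Tet3. NPs had a lower sum of 11.6 to 22.5 RPKM, and Tet3 made up 58.0%, 44.0% and 45.1% of it. Tet3 was the highest of the 3 genes in every NP library. Tet1 and Tet2 could not be ordered there, since Tet1 was above Tet2 in replicates 1 and 2 and below it in replicate 3. The Tet2 share differed by only 0.373 points between NPs and ESCs (exact permutation p = 1.0). The Tet1 share fell by 48.6 points and the Tet3 share gained 48.2, and in both the NP and ESC libraries did not overlap (two-sided exact permutation p = 0.1, adjusted p = 0.12 over 6 tests). With 3 against 3 libraries, 0.1 is the smallest p this test can give.

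The sum in TET TKO ESCs was 14.1 to 19.4 RPKM, a range inside that of NPs, but the make-up was that of ESCs in order. Tet1 made up 81.6% ± 1.32, Tet2 15.1% ± 1.25 and Tet3 3.33% ± 0.139 (SD, n = 3). Compared with ESCs, the shares moved by 4.82, -7.31 and 2.49 points (exact permutation p = 0.1 for each, adjusted p = 0.12).

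**Figure D2:**
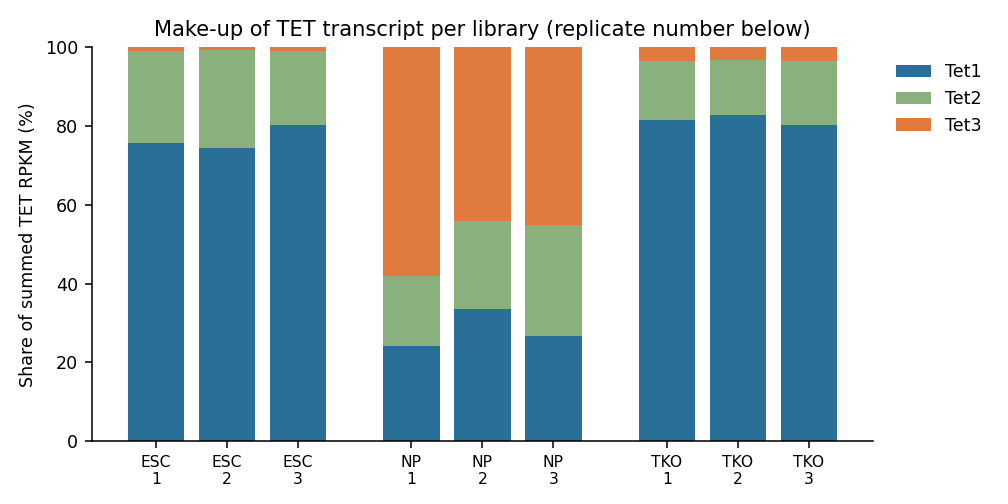
Share of Tet1, Tet2 and Tet3 in their summed RPKM (vertical axis, percent) in each of the 9 libraries, with the replicate number under the group name (TKO, TET TKO ESCs). Tet1 fills 74.4% to 80.2% of the bar in ESCs and 80.2% to 82.9% in TET TKO ESCs, whereas Tet3 fills 44.0% to 58.0% in NPs.

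The nearest expressed genes on both sides of each TET gene were examined in the same tests. On chromosome 10, Slc25a16, a mitochondrial carrier gene 11637 bases from Tet1, was called lower in NPs (log2 -1.70, edgeR adjusted p = 0.000151516) and had a log2 fold change of -0.87 in TET TKO ESCs that was not called (edgeR adjusted p = 0.00635197). Ccar1, 12284 bases away on the other side, had -0.72 and -0.18 (edgeR adjusted p = 0.0540541 and 0.517795). On chromosome 3, Ppa2, a mitochondrial pyrophosphatase gene 85444 bases from Tet2, stayed at -0.29 and 0.04 and was not called.

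The other expressed neighbour of Tet2 is Cxxc4, 691345 bases away. It encodes IDAX, a CXXC protein that binds TET2 and promotes its loss. Cxxc4 had 11 to 17 counts in ESCs and 685 to 1137 in NPs, a log2 fold change of 6.07 (SE 0.337, edgeR adjusted p = 2.77035e-06), opposite in sign to that of Tet2. In TET TKO ESCs it was at 0.0686 ± 0.0325 RPKM (SD, n = 3), below the filter.

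Beside Tet3 on chromosome 6, Dguok, the mitochondrial deoxyguanosine kinase gene, was 21133 bases away and was called higher in TET TKO ESCs (log2 1.67, SE 0.153, edgeR adjusted p = 0.000404163). Bola3, 2237 bases away, had a log2 fold change of 1.10 that was not called (edgeR adjusted p = 0.00371929). In NPs the values were 1.24 and 1.09, also not called. Both neighbours of Tet3 lay above ESCs in the knockout where Tet3 itself lay below. The 6 annotated genes that overlap a TET gene had at most 12 counts in any library. Reads were counted without strand, so antisense reads on exons of a TET gene alone cannot be told apart from its own reads. B230319C09Rik, which overlaps Tet3 on the other strand, had separate counts. These were 0 to 1 per library in ESCs, 2 to 6 in NPs and 1 to 7 in TET TKO ESCs.

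**Figure D3:**
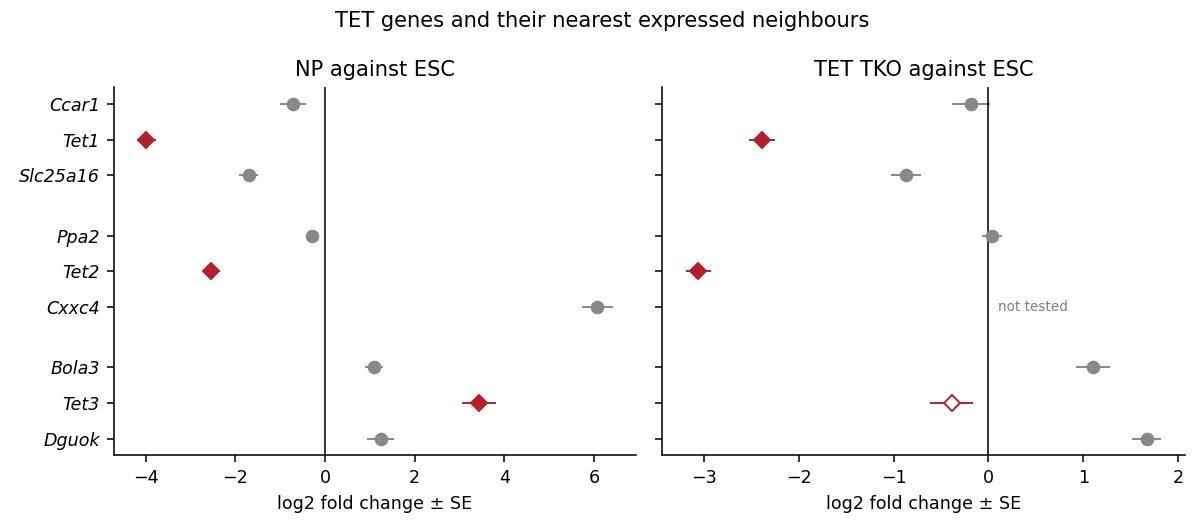
The log2 fold change with its SE (horizontal axes, on different scales) of each TET gene (red diamonds) and of its nearest expressed neighbours (grey circles), for NPs and for TET TKO ESCs against ESCs. The open diamond is Tet3 from the fit without a filter, at -0.39, and the 3 tested neighbours of Tet1 and Tet2 in the knockout lie between -0.87 and 0.04.

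Genes that act with the TET enzymes were counted in 4 lists with 44 members in all. In NPs, 43 were tested, of which 2 were called higher and 9 lower, with a median log2 fold change of -0.56 against 0.025 over all genes. The share of all genes called was 22.3%, with 12.4% higher and 9.98% lower. In TET TKO ESCs, 1 of 43 was called higher and 0 lower, against 2.14% of all genes called, and the median was 0.20 against 0.016. At an unadjusted p under 0.05 in edgeR, 13 were higher and 9 lower there, and over all genes 23.3% were higher and 21.8% lower. The 11 calls in NPs held without each library in turn.

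The first list holds 12 genes that remove oxidation products and complete base excision repair. In NPs, 1 of 11 tested rose, Smug1, a uracil glycosylase that also removes 5-hydroxymethyluracil (log2 2.95, edgeR adjusted p = 1.05302e-05), from 6.67 ± 0.629 to 52.2 ± 16.0 RPKM (SD, n = 3). Ung, the main uracil glycosylase, fell (log2 -1.82, edgeR adjusted p = 6.02655e-06). These 2 calls among 11 genes stand beside 12.4% of all genes called higher and 9.98% lower. The median of the list was -0.27.

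Tdg, whose product excises 5-formylcytosine and 5-carboxylcytosine, was low throughout. It had 0.333 ± 0.00866 RPKM in ESCs and 0.408 ± 0.105 in NPs (SD, n = 3), below the filter. In TET TKO ESCs it was at 1.70 ± 0.123 RPKM (SD, n = 3) and was called higher (log2 2.24, SE 0.202, edgeR adjusted p = 0.000388282). It had 38 to 44 counts per ESC library. The call held in only 1 of 6 fits with a library left out, that without TET TKO replicate 3. It was lost without ESC replicate 1, 2 or 3 or TET TKO replicate 1 or 2. In the fits that lost it, all genes called higher fell from 118 to between 12 and 65. The Tdg call was kept in 8 of 8 other settings. An annotated pseudogene copy, Tdg-ps, can share reads with Tdg, so the count is uncertain. The other 11 members were not called in TET TKO ESCs, and the median was 0.23.

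The second list holds 13 genes that supply 2-oxoglutarate, ascorbate or the metabolites that inhibit TET enzymes. In the edgeR fit reported here none was called in either comparison, and the medians were -0.10 and 0.20. At an unadjusted p under 0.05 in edgeR, 3 were higher and 6 lower in NPs, where 34.4% of all genes were higher and 33.1% lower. In TET TKO ESCs, 3 were higher and 1 lower, beside 23.3% and 21.8% of all genes. This count of 0 was not stable in NPs, where each edgeR fit with a library left out called 1 member lower, and so did DESeq2. In TET TKO ESCs, D2hgdh was called higher by edgeR without a filter, with all 3 groups in the fit and with the replicate block, and by DESeq2. D2hgdh encodes an enzyme that breaks down 2-hydroxyglutarate, and is named after its value was seen. Idh1, which makes 2-oxoglutarate in the cytosol, had a log2 fold change of 0.93 in NPs (edgeR adjusted p = 0.00215873) and 0.20 in TET TKO ESCs (edgeR adjusted p = 0.469418).

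The third list holds 14 partners and regulators of TET proteins. Besides Cxxc4, which rose in NPs, 6 of 14 members fell there, where 12.4% of all genes were called higher and 9.98% lower. Nanog and Sall4 encode ESC factors that bind TET proteins, and had log2 fold changes of -8.26 and -3.03. Prdm14, a repressor of DNA methyltransferase genes, fell by 8.82 on the log2 scale, from 1146 to 1321 counts in ESCs to 1 to 5 in NPs. Dppa3 (Stella), which shields 5-methylcytosine from oxidation in the zygote, had -4.59, the RNA-binding protein gene Lin28a -2.37, and Cul4b, which encodes part of a ubiquitin ligase that acts on TET proteins, -1.99. Of these 6, the largest edgeR adjusted p was 7.69263e-05, for Dppa3. Nanog is also 1 of the pluripotency markers above. Ogt, which encodes a glycosyltransferase bound to TET proteins, had a log2 fold change of -0.08 in NPs (edgeR adjusted p = 0.613595) and -0.23 in TET TKO ESCs (edgeR adjusted p = 0.0796775).

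In TET TKO ESCs, none of 13 partners and regulators tested was called in the edgeR fit reported here, with 5 higher and 4 lower at an unadjusted p under 0.05. At that p, 23.3% of all genes were higher and 21.8% lower. Dppa3 was called higher by DESeq2 and by edgeR without a filter, with all 3 groups in the fit and with the replicate block. It stood at 88.9 ± 36.5 RPKM against 8.24 ± 4.10 in ESCs (SD, n = 3), a log2 fold change of 3.31 (SE 0.415, edgeR adjusted p = 0.00131586). Dppa3 is named here after its value was seen.

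The fourth list holds the 3 DNA methyltransferase genes Dnmt1, Dnmt3a and Dnmt3b, the cofactor gene Dnmt3l and Uhrf1, whose product guides DNMT1 to replicated DNA. Dnmt3l and Dnmt3b fell in NPs, with log2 fold changes of -8.93 and -3.24 (edgeR adjusted p = 1.07341e-06 and 2.68821e-06). Uhrf1 had a log2 fold change of -1.04 in NPs (edgeR adjusted p = 4.87967e-05), under the fold limit. Dnmt1 had -0.20 in NPs and -0.25 in TET TKO ESCs (edgeR adjusted p = 0.114622 and 0.0545914). None of the 5 was called in TET TKO ESCs by edgeR or DESeq2, with 0 higher and 1 lower at an unadjusted p under 0.05 in edgeR. Over all genes, 23.3% were higher and 21.8% lower at that p. A missing call is not a sign of an equal level, since TET TKO libraries could differ widely. Dnmt3b lay between 38.7 and 140 RPKM in them, against 51.5 to 62.1 in ESCs (log2 0.53, SE 0.386, edgeR).

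**Figure D4:**
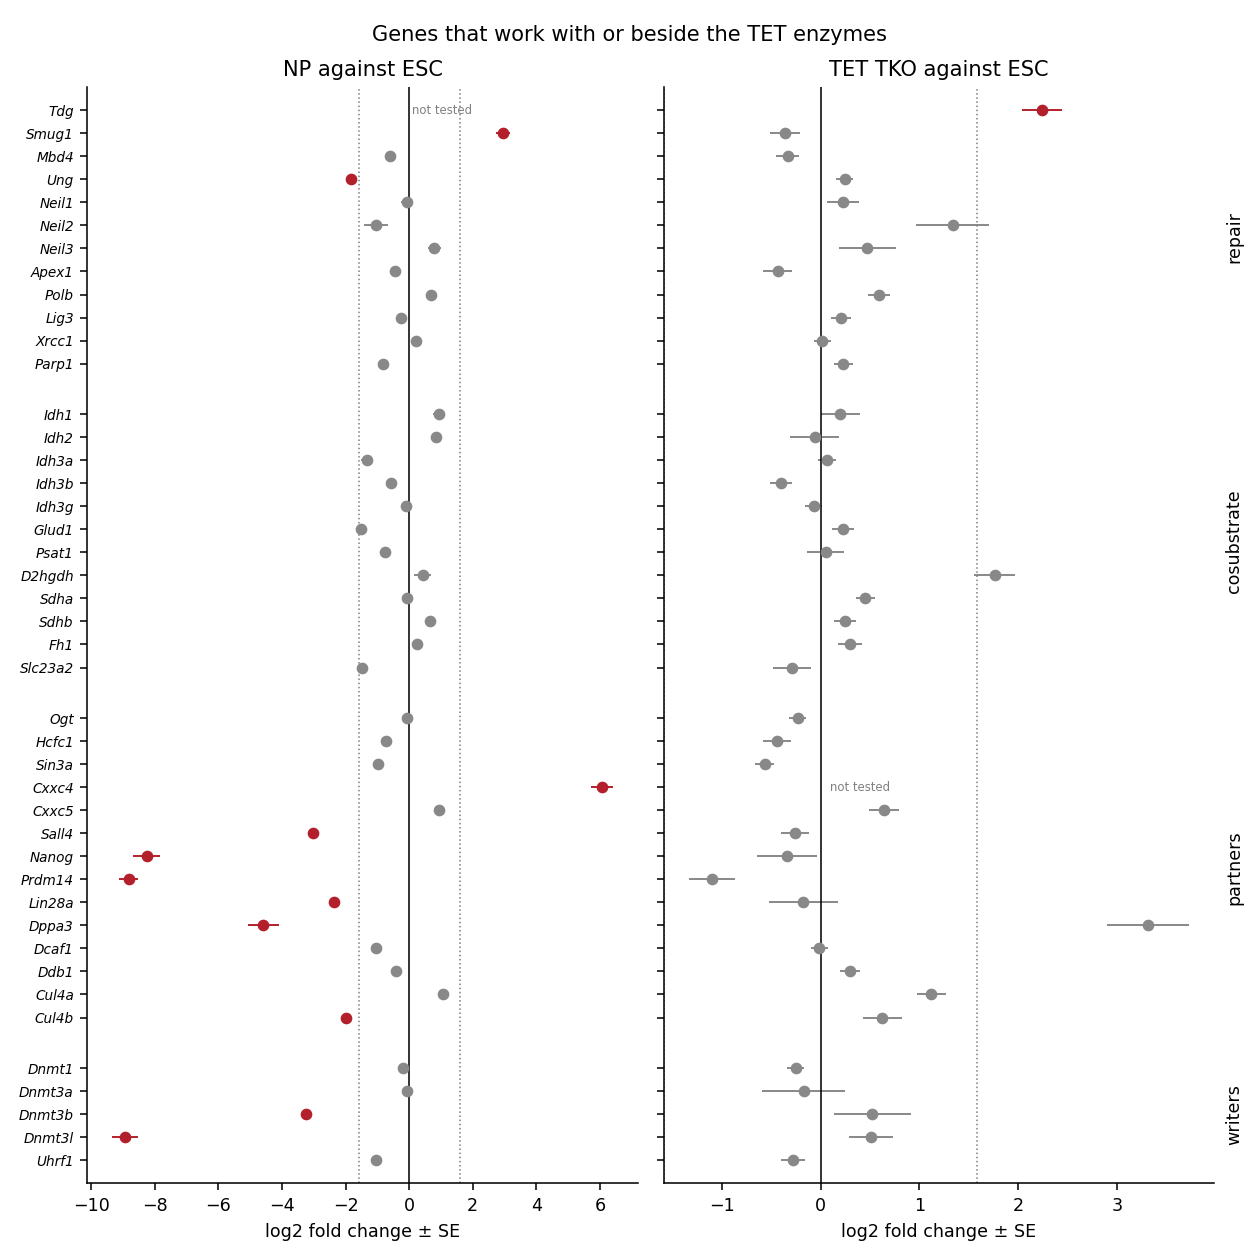
The log2 fold change with its SE (horizontal axes, on different scales) of 43 of the 44 genes in 4 lists, for NPs and for TET TKO ESCs against ESCs. Red points were called, with an adjusted p below 0.001 and past the 3-fold limit (dotted lines), and grey points were not. In NPs 11 points are red, from Dnmt3l at -8.93 to Cxxc4 at 6.07, and in TET TKO ESCs only Tdg at 2.24 is red.

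Genes with the pattern most like that of each TET gene over the 9 libraries were sought by the root mean square difference of log2 CPM, centred on each gene's mean, among 15614 genes. For Tet1 the nearest was Gfod1 (difference 0.215), at 3.98 ± 0.282 RPKM in ESCs, 0.297 ± 0.0447 in NPs and 0.790 ± 0.178 in the knockout (SD, n = 3), followed by 2010309G21Rik (0.237) and 1700001L05Rik (0.339). For Tet2 it was Pnpla3 (0.259), a lipase gene, at 3.32 ± 0.142, 0.642 ± 0.202 and 0.458 ± 0.115 RPKM (SD, n = 3), followed by the predicted genes Gm18011 (0.290) and Gm14848 (0.298). For Tet3 it was Ephb1 (0.211), an ephrin receptor gene, followed by Igfbpl1 (0.299) and Iglon5 (0.302). Igfbpl1 was at 2.09 ± 0.201 RPKM in ESCs, 20.3 ± 8.61 in NPs and 1.25 ± 0.0303 in the knockout (SD, n = 3). Gm14848 was at 0 RPKM in NPs and in the knockout, and 2010309G21Rik at 0 RPKM in NPs. Their log2 fold changes in NPs were -6.00 and -6.90, against -2.54 for Tet2 and -3.98 for Tet1. The closeness of these 2 genes therefore rests in part on libraries without counts. The 9 libraries share groups, lines and depths, so likeness to a TET gene is a description.

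Methylation of the fragment FR1 was read in the wild type and knockout ESCs. FR1 is a bacterial DNA fragment inserted at 1 genomic site, here after methylation in vitro with the CpG methyltransferase M.SssI, and each construct carries a motif or its scrambled version (Sc). Over 30 Sc fragments and 23 CpGs outside the motif, mean CG methylation was 67.8% in the ESC pool, with an SD over fragments of 10.8 points and a range of 42.6% to 83.7%. In the TET TKO pool it was 88.4%, with an SD over fragments of 8.01 points and a range of 70.1% to 98.0%. The TET TKO pool was higher in 29 of 30 fragments, by 20.5 points on average. The fragment without a motif gave 63.2% and 89.3%. The paper reports a higher mean around Sc motifs in ESCs than found here, and a similar one in TET TKO ESCs. The difference between genotypes is therefore smaller in the paper. The source of this mismatch was not tested.

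Each value is 1 pool per genotype, with 13 to 1136 reads per CpG, so no test was made. The values of each pool come in numbered columns, and the labels do not say what the numbers stand for. The paper pooled replicates, both biological and technical. Means of single columns lay between 62.1% and 72.3% in ESCs and between 88.5% and 93.2% in TET TKO ESCs. They cover unlike sets of Sc fragments, from 1 to 28 per column in ESCs and 27 to 31 in TET TKO ESCs. Reads of the TET TKO pool were not filtered on non-CG methylation, unlike those of the ESC pool, and the line differed as well. The part of this filter in the difference was not tested. In the RNA-seq libraries, which are other samples than these pools, summed TET transcript was 84.8 RPKM in ESCs and 16.6 RPKM in the knockout. A relation of transcript level to methylation was not tested.

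**Figure D5:**
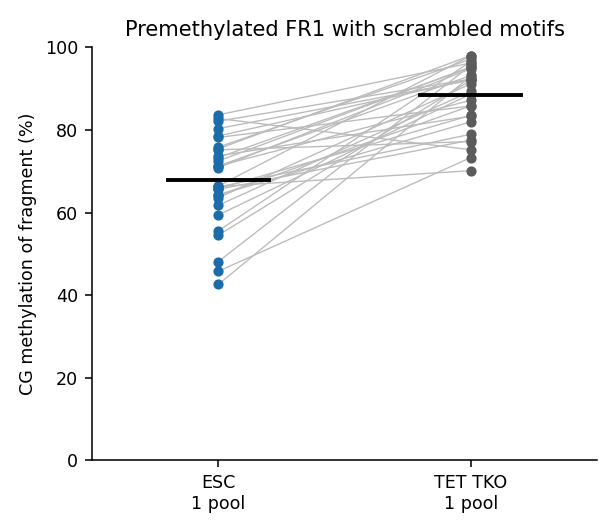
Mean CG methylation of 30 FR1 fragments with scrambled motifs (vertical axis, percent), inserted after methylation with M.SssI, in 1 pool each of ESCs and TET TKO ESCs. Points are fragments, grey lines join the same fragment, and black bars are the means of 67.8% and 88.4%. In 29 of 30 fragments the line rises towards TET TKO ESCs.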

How the data were processed

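For RNA-seq, the authors aligned single-end reads with STAR 2.6.1b after Trimmomatic 0.38 and deposited raw counts per gene from featureCounts 1.6.2, made without strand on GRCm38 gene models. For FR1, they deposited read counts for each CpG of a construct, total and methylated, from Bismark 0.20.0. The FR1 table of NPs after M.SssI is shared by 2 samples, and its 27 columns of values name neither, so it was not used here.

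Groups followed the labels. Genes with at least 1 RPKM in at least 1 of the 6 libraries compared were tested with edgeR 4.0.16 (R 4.3.3), TMM scaling, the quasi-likelihood F-test and Benjamini-Hochberg adjustment over all genes tested. SE is the log2 fold change over the root of F. CpGs needed 10 reads in both pools. The paper calls the RNA-seq replicates biological. Labels do not say whether libraries came from separate cultures, so p-values measure only the spread between libraries. Replicates of a group differed by more than sampling noise. The chi-square per degree of freedom was 2.37 to 19.7 in ESCs, 39.5 to 67.9 in NPs and 109 to 194 in TET TKO ESCs. The TET TKO libraries were also the deepest.

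Named genes are the TET genes, list members called in a comparison (at most 6 a list), Tdg, Dnmt1, Uhrf1, Ogt and Idh1, overlapping and nearest expressed neighbours, and the 3 genes nearest in pattern. A list gene is counted but not reported here by name. Members and lists were chosen with earlier results of these data known. edgeR was tested on simulated data. Alternatives were other scalings, filters, fold limits and fits, DESeq2 1.42.0, thinned counts, read minimums and each library left out. Other pools and lines of the series were not used here. Python 3.11.15, numpy 2.4.6, scipy 1.17.1, pandas 2.3.3 and matplotlib 3.10.9 were used.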

Additional observations from a re-analysis of the deposited data

How the results depend on the processing

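The calls of Tet1, Tet2 and Tet3 in NPs and of Tet1 and Tet2 in TET TKO ESCs held under every alternative run, while Tet3 in TET TKO ESCs was called under none of those that tested it. Under an alternative, 156 values stayed and 24 moved. Genes called lower in NPs went from 1516 to 2588 without a filter and 863 with at least 10 counts in every library. Genes called higher and lower in TET TKO ESCs went from 118 and 180 to 404 and 506 with DESeq2, and to 574 and 689 without a filter, and the higher ones to 204 at a fold limit of 2. Leaving out 1 library gave 12 to 115 higher and 38 to 179 lower in TET TKO ESCs. Each of ESC replicates 1, 2 and 3 (12 and 38, 15 and 43, 21 and 49) and TET TKO replicates 1 and 2 (39 and 53, 65 and 100) moved both counts by more than 1.5 times.

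With the replicate number as a block, 255 genes were higher and 334 lower in TET TKO ESCs, and 1856 and 1503 in NPs. For NPs, correlations of deviations with the ESC library of the same number were -0.06, 0.018 and -0.12, and none was the best match. For TET TKO ESCs they were -0.077, 0.30 and 0.21, with the same number the best match for replicates 2 and 3. With 3 libraries per group, these values cannot decide on pairing in NPs or in TET TKO ESCs. Under the block, the log2 fold changes were -4.01, -2.55 and 3.30 for Tet1, Tet2 and Tet3 in NPs and -2.40 and -3.05 for Tet1 and Tet2 in TET TKO ESCs.

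Shares from counts not divided by length were 79.8%, 16.5% and 3.62% for Tet1, Tet2 and Tet3 in TET TKO ESCs and 0.909% for Tet3 in ESCs. The second list had 1 gene called lower in NPs in place of 0 without each of the 6 libraries (that without NP replicate 1 was chosen after seeing the data) and with DESeq2, and 4 at a fold limit of 2. Over the 6 libraries of ESCs and NPs, 1 of 9 nearest genes (Pnpla3) remained among the nearest 3. The methylation alternatives were not run for the NP pool, which was not used here. Libraries of ESCs held 230 to 316 counts of Tet3 and 38 to 44 of Tdg, and how far depth limits them was not tested.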

Other observations

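Over the 6 libraries of ESCs and NPs alone, which leaves the knockout line aside, the genes nearest in pattern to Tet1 were Atp12a (root mean square difference of centred log2 CPM 0.093), Ascl2 (0.119) and Vrtn (0.134). Those nearest to Tet2 were Kat6b (0.128), a histone acetyltransferase gene, Pnpla3 (0.153) and Mkrn1 (0.155). Nearest to Tet3 were Hes6 (0.123), a gene of the HES family of neural differentiation regulators, Rnf122 (0.155) and Gnao1 (0.182), which encodes a G protein subunit abundant in the nervous system.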
